A study of Equisetum hyemale and Pteris vittata and Marchantia polymorpha with 22 samples.

Results

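Autophagy genes were followed in shoots of 5 land plants held for 8 h in darkness at 21% O2 (air) or 1% O2 (hypoxia). The members were all features of 5 expression tables whose *Arabidopsis thaliana* best hit is described as an autophagy protein in at least 1 of the tables. The rule uses no measured value, but it was set with earlier results of these data known. They numbered 87 of 180885 features and traced to 14 best hits. The liverwort *Marchantia polymorpha* had 10, the moss *Physcomitrium patens* 18, the lycophyte *Selaginella moellendorffii* 15, the horsetail *Equisetum hyemale* 21 and the fern *Pteris vittata* 23. Features are gene models in the first 3 species, assembled genes in *E. hyemale* and assembled transcripts in *P. vittata*, where the 23 members belong to 15 genes of the assembly. A best hit carries the name of an *A. thaliana* gene, which is used as a label and not as proof of orthology. ATG3, ATG5, ATG6, ATG9 and ATG11 were best hits in all 5 tables.

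Each species had 2 air and 2 hypoxia libraries, except *E. hyemale*, which had 3 and 3. The study describes the *M. polymorpha* (accession Cambridge-2) and *P. patens* material as haploid gametophores and that of the other species as diploid sporophytes. For the liverwort the sources differ, since the methods name thalli, the deposited design text lists it among the sporophytes and the labels call every sample shoot. Per the methods, a replicate pooled 3 thalli, plantlets or shoots. The labels name no mutant or transgenic line, and air and hypoxia plants shared the darkness, so light was off in every sample. The question was which genes of the pathway change in transcript level when O2 is withdrawn.

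Macroautophagy encloses cytoplasm in a double membrane, the autophagosome, and delivers it to the vacuole for breakdown. In plants it recycles nutrients under starvation and darkness and clears damaged organelles and protein aggregates. A kinase complex of ATG1, ATG13, ATG11 and ATG101 starts the process, and TOR kinase holds it back when energy and nutrients are plentiful. ATG9, ATG2 and ATG18 proteins bring lipid to the growing membrane, ATG6 belongs to the lipid kinase complex that marks it with phosphatidylinositol 3-phosphate, and the ATG7, ATG3, ATG5, ATG12 and ATG16 proteins couple ATG8 to it. The ubiquitin-like ATG8 then binds cargo receptors such as NBR1.

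Values are CPM, read counts scaled to a common library total within each species, so levels were compared only between libraries of 1 species. The number of reads behind a library was estimated roughly, at between 16300000 and 28700000. It was the depth that put the largest share of low values within 0.1 read of a whole number, a share of only 40.5 to 79.7%. Genes of fermentation and sucrose breakdown served as a check of the treatment. Pyruvate decarboxylase (PDC) best hits summed to between 251 and 290.0 CPM in air and between 790.0 and 945 CPM in hypoxia in *M. polymorpha*, to between 207 and 242 against 1260 and 1560 CPM in *E. hyemale*, and to between 306 and 860.0 against 2570 and 3000 CPM in *S. moellendorffii*. In *P. patens* sucrose synthase best hits were at 222 to 247 against 360.0 to 446 CPM. The markers printed thus differ by species, and not every marker rose. In *M. polymorpha* the ADH1 feature Mapoly0154s0033.1 was lower without overlap (log2 fold change -0.161, adjusted p = 0.4232 by limma). Sucrose synthase was higher there (1.05, adjusted p = 0.005009 by limma). In *S. moellendorffii* the air libraries lay far apart. Its ADH1 feature 145705 was at 110.7 and 712.1 CPM in air and 2135 and 1762 CPM in hypoxia. In *P. vittata* the PDC sums overlapped, at 81.7 to 107 CPM in air and 82.2 to 101 CPM in hypoxia. The ADH1 sums overlapped there too, at 39.4 to 53.0 against 49.9 to 73.6 CPM. Sucrose synthase best hits were at 610.0 to 616 against 660.0 to 790.0 CPM, and their 22 transcripts had log2 fold changes between -0.53 and 3.03. The highest, TRINITY_DN34786_c0_g1_i2, went from 1.67 and 1.87 CPM in air to 23.9 and 19.5 CPM in hypoxia (adjusted p = 0.1845 by limma). Best hits of RBCS, the small subunit of Rubisco and a marker of green tissue, summed to between 175 CPM in *E. hyemale* and 10200 CPM in *M. polymorpha*. The *E. hyemale* values stood in another row order than their identifiers and were assigned to the sorted identifiers, which brought their correlation with the deposited average log2 CPM of each gene from 0.0102 to 0.9998 over 55254 genes. Every *E. hyemale* value below rests on that assignment. In this species the hypoxia library 4 stood apart, with the lowest value of 27.3% and the highest of 32.0% of features with a mean of at least 5 CPM.

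No autophagy member passed an adjusted p under 0.05 in any species. The test was limma on log2(CPM + 1), hypoxia minus air, with Benjamini-Hochberg adjustment over all features of a table, and the smallest adjusted p of a member was 0.149. At an unadjusted p under 0.05 there were 8 members, 4 higher and 4 lower in hypoxia. They were 1 lower in the liverwort (15.8% of all features were so), 1 higher and 0 lower in the moss (5.45% and 5.46%), 1 higher and 2 lower in the lycophyte (10.4% and 5.42%), 1 higher and 1 lower in the horsetail (6.71% and 5.99%) and 1 higher and 0 lower in the fern (6.03% and 4.23%). No count model was run, since whole reads could not be recovered from the deposited values. Of all features, 8.42% passed as higher and 8.34% as lower in the liverwort, 0.205% and 0.0513% in the moss, 0% and 0% in the lycophyte, 1.3% and 0.405% in the horsetail, and 0% and 0% in the fern. In *S. moellendorffii* and *P. vittata* no feature of any kind passed, so a count of 0 members there carries no information about autophagy genes.

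On the log2(CPM + 1) scale, an interval between -1 and 1 means less than a 2-fold change of CPM + 1 either way. For features of a few CPM or less it allows a larger change in CPM itself. The 95% interval of the log2 fold change lay between -1 and 1 for 77 of the 87 members. That held for 10 of 10 liverwort members, 17 of 18 moss members, 15 of 15 lycophyte members, 19 of 21 horsetail members and 16 of 23 fern members. Among all features of those tables the share was 89.1%, 96.5%, 94.1%, 85.9% and 63.4%, in the same order. Of the members, 40 had a higher and 47 a lower mean in hypoxia, and their median log2 fold change was -0.10 for the liverwort, 0.06 for the moss, -0.01 for the lycophyte, 0.03 for the horsetail and -0.03 for the fern, beside a median over all features of 0.00 in every table. Over members with a mean of at least 5 CPM, the median absolute log2 fold change was 0.10, 0.07, 0.04, 0.17 and 0.09 in that order of species, where all features of that level gave 0.19, 0.10, 0.12, 0.18 and 0.22.

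**Figure D1:**
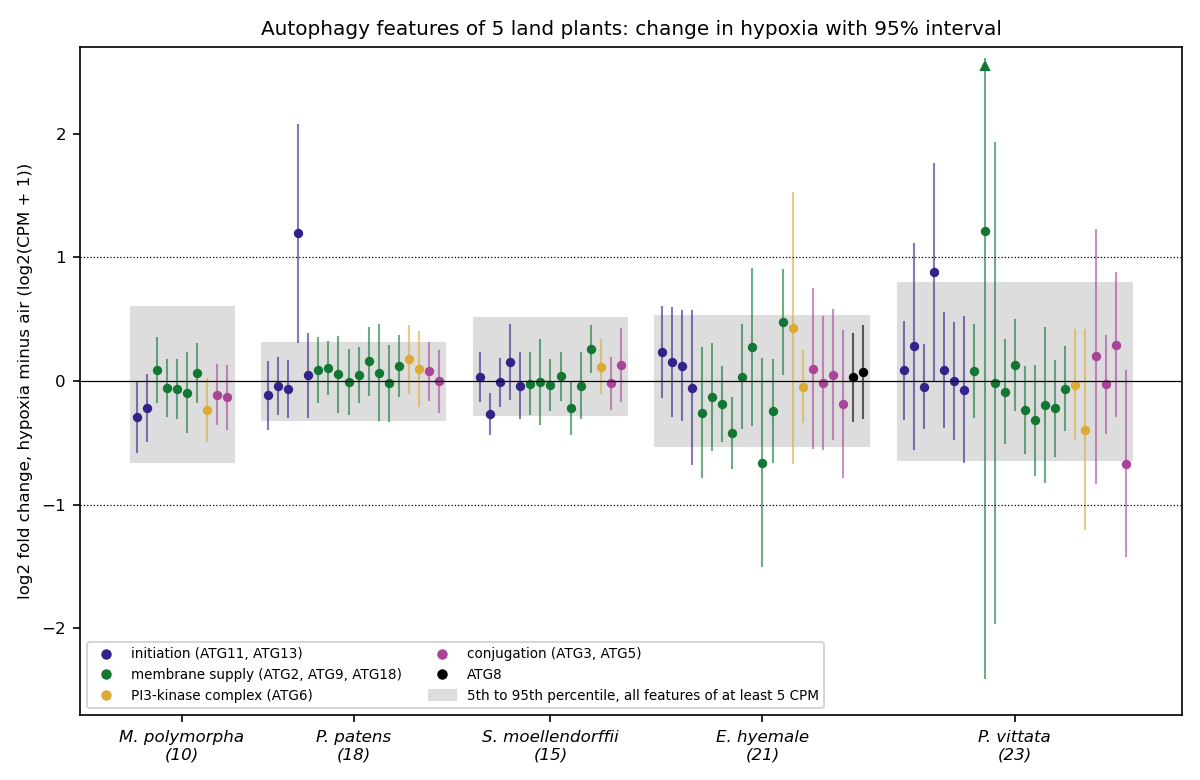
Log2 fold change of each of the 87 autophagy members (points) with its 95% interval from limma (bars), on the log2(CPM + 1) scale, by species and coloured by role. The grey band is the 5th to 95th percentile of all features with a mean of at least 5 CPM, dotted lines mark -1 and 1, and the arrowhead marks an interval that runs past the axis (to 4.84). Most points lie within the grey band of their species, and 77 intervals lie between the dotted lines.

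The initiation complex was represented by 23 members, of ATG11 (14 features), ATG13a (7) and ATG13b (2). ATG11, the scaffold that links the kinase to selective cargo, was lower in *M. polymorpha* and in *S. moellendorffii* without passing the test. In *M. polymorpha* Mapoly0041s0089.1 was at 62.0 and 77.4 CPM in air and 56.1 and 56.9 CPM in hypoxia (log2 fold change -0.29, SE 0.12, adjusted p = 0.149 by limma). In *S. moellendorffii* 1 of 3 ATG11 features, 182539, was at 109 and 105 CPM in air and 88.2 and 89.1 CPM in hypoxia (-0.27, interval -0.43 to -0.10, adjusted p = 0.165 by limma). In both species the hypoxia libraries lay below both air libraries. The other *S. moellendorffii* features, 141195 and 79145, overlapped between conditions, with log2 fold changes of 0.04 and -0.01. *P. patens* had ATG11 features at 90.7 and 74.7 against 76.4 and 75.2 CPM (Pp3c19_12090) and at 102 and 93.1 against 95.8 and 93.3 CPM (Pp3c22_15890). There the pair of air libraries differed more from each other than the hypoxia libraries did.

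ATG13, the regulatory subunit of the ATG1 kinase, had 9 members. In *M. polymorpha* the ATG13a feature Mapoly0074s0075.1 was at 52.3 and 63.0 CPM in air and 49.4 and 48.9 CPM in hypoxia (-0.22, adjusted p = 0.237 by limma), again with no overlap. *S. moellendorffii* had 404290 at 7.34 and 8.06 against 9.20 and 8.19 CPM and 438134 at 15.2 and 14.8 against 13.7 and 15.7 CPM, so the copies did not share a direction. In *P. patens* Pp3c1_24110 was at 52.0 and 48.2 against 48.8 and 46.8 CPM. A second ATG13a feature with the next identifier, Pp3c1_24111, had the largest log2 fold change of the moss members, 1.195 (interval 0.32 to 2.07, adjusted p = 0.306 by limma), and was picked out after its values were seen. Its values of 0.763 and 0 CPM in air and 1.18 and 3.24 CPM in hypoxia are close to the detection limit, and reads shared with its neighbour may be split between them. The ATG13b features were at 22.9 and 17.3 against 20.3 and 20.8 CPM in *P. patens* (Pp3c2_10630) and at 5.94 and 8.06 against 6.80 and 6.32 CPM in *P. vittata* (TRINITY_DN35617_c0_g3_i1). *E. hyemale* had no ATG13 best hit.

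Membrane supply held 40 members. ATG9, the membrane protein that seeds autophagosomes, was higher in *S. moellendorffii* without passing the test. Its feature 50959 was at 36.6 and 37.4 CPM in air and 43.1 and 46.1 CPM in hypoxia (0.26, interval 0.08 to 0.45, unadjusted p = 0.0146, adjusted p = 0.208, both by limma), with no overlap between conditions. In *M. polymorpha* Mapoly0002s0148.1 was at 39.04 and 41.6 against 43.1 and 41.3 CPM. In *P. patens* Pp3c2_1820 was at 31.9 and 28.4 against 33.5 and 32.1 CPM (0.12) and Pp3c10_9800 at 11.8 and 10.04 against 11.2 and 10.2 CPM. *P. vittata* TRINITY_DN34144_c0_g1_i1 was at 52.4 and 52.7 against 49.0 and 51.7 CPM, where the hypoxia libraries were the lower ones by 0.06 log2 units. Its interval ran from -0.395 to 0.272 (adjusted p = 0.9038 by limma). The separations in *S. moellendorffii* and *P. vittata* thus had opposite signs, and the difference between these species was not tested.

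ATG2, a lipid transfer protein, had a lower mean in hypoxia in *P. vittata* in 3 of 3 transcripts, which belong to 2 genes of the assembly. Of these, TRINITY_DN36099_c1_g2_i1 and TRINITY_DN36265_c0_g3_i1 did not overlap between conditions, where 20.9% of all fern features were lower without overlap. The former was at 16.1 and 17.7 CPM in air and 12.5 and 14.3 CPM in hypoxia (-0.32, adjusted p = 0.602 by limma), and the latter at 45.3 and 50.2 against 38.2 and 43.6 CPM (-0.22). In the other species with an ATG2 best hit the conditions overlapped. Mapoly0038s0067.1 was at 77.2 and 103 against 86.5 and 80.3 CPM, Pp3c13_15610 at 40.6 and 28.2 against 35.5 and 35.5 CPM, and 113891 of *S. moellendorffii* at 20.1 and 22.2 against 22.0 and 19.3 CPM.

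The ATG18 proteins, which bind phosphatidylinositol 3-phosphate and work with ATG2, made up 25 members under 5 best hits. Summed over its features, ATG18h was lower without overlap in the lycophyte, horsetail and fern and overlapped in the moss. In *S. moellendorffii* 442028 was at 202 and 178 (air) and 162 and 163 CPM (hypoxia), a log2 fold change of -0.22 (adjusted p = 0.292 by limma). In *E. hyemale* Ehym_DN109570_c3_g1 was at 49.3, 55.6 and 59.2 CPM in air and 43.5, 38.3 and 39.6 CPM in hypoxia (-0.42, interval -0.71 to -0.14, adjusted p = 0.171 by limma). In *P. vittata* TRINITY_DN36090_c0_g1_i1 was at 58.2 and 59.8 against 47.6 and 52.9 CPM (-0.23, adjusted p = 0.626 by limma). None of these 3 pairs of groups overlapped, in a setting where 23.5% of all lycophyte features, 9.38% of horsetail and 20.9% of fern features were lower without overlap. The second *E. hyemale* gene of the same assembly component, Ehym_DN109570_c3_g2, was at 18.2, 19.97 and 21.6 against 23.5, 23.6 and 15.2 CPM, with hypoxia 1 and 3 above air and hypoxia 4 below it. Of 4 ATG18h features in *P. patens*, Pp3c23_8190 was at 433 and 439.9 CPM in air and 428 and 439.0 CPM in hypoxia, and Pp3c8_5760 at 61.0 and 50.11 against 62.4 and 61.2 CPM (0.16, adjusted p = 0.701 by limma).

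Under the other 4 ATG18 best hits of the members, summed by species, 1 of 10 sums did not overlap between conditions. That was ATG18c of *P. patens* (Pp3c6_26220), at 45.98 and 46.01 CPM in air and 49.9 and 49.25 CPM in hypoxia (0.11, adjusted p = 0.755 by limma). In *E. hyemale* the 3 ATG18g genes all had a lower mean in hypoxia, with log2 fold changes between -0.255 and -0.13, and summed to 130.6, 126 and 133 against 131.5, 131 and 92.7 CPM, so that hypoxia 4 alone lay below air. In *M. polymorpha* the ATG18c feature Mapoly0001s0033.1 was at 118 and 126 against 121 and 114 CPM, and the ATG18g feature Mapoly0006s0048.1 at 105 and 119 against 107 and 107 CPM. In *S. moellendorffii* the ATG18d features 171375 and 171378 summed to 221 and 200 CPM in air and 210.1 and 210.1 CPM in hypoxia. In *P. vittata* the ATG18d transcript TRINITY_DN31304_c0_g1_i1 was at 56.5 and 48.8 against 57.8 and 57.2 CPM (0.13, adjusted p = 0.800 by limma). The ATG18b features of *M. polymorpha*, *P. patens* and *S. moellendorffii* had log2 fold changes between -0.02 and 0.09.

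ATG6, the plant Beclin 1 of the lipid kinase complex, had 8 members. In *M. polymorpha* Mapoly0091s0016.1 was at 61.6 and 67.5 CPM in air and 58.3 and 51.2 CPM in hypoxia (-0.24, interval -0.49 to 0.02, adjusted p = 0.185 by limma). In *S. moellendorffii* 94233 was at 34.0 and 37.2 against 40.1 and 37.3 CPM (0.12, adjusted p = 0.559 by limma). In *P. patens* Pp3c10_4130 was at 13.2 and 11.7 against 14.04 and 14.3 CPM and Pp3c1_21510 at 25.9 and 21.0 against 26.1 and 24.0 CPM. The hypoxia libraries were thus the lower ones in the liverwort and the higher ones for 94233 and Pp3c10_4130. For 94233 this rested on a narrow gap, between 37.25 CPM in air 3 and 37.3 CPM in hypoxia 3. *E. hyemale* Ehym_DN103408_c0_g2 was level, at 44.7, 38.99 and 38.3 against 36.8, 38.4 and 42.9 CPM, and so was *P. vittata* TRINITY_DN32227_c0_g1_i1, at 23.1 and 26.3 against 22.1 and 26.3 CPM.

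Conjugation was represented by ATG3, the enzyme that hands ATG8 to its lipid, and ATG5, which with ATG12 forms the part of the machinery that directs it. In *M. polymorpha* ATG3 (Mapoly0003s0208.1) was at 66.7 and 73.1 CPM in air and 68.1 and 61.4 CPM in hypoxia, and ATG5 (Mapoly0019s0054.1) at 33.3 and 31.3 against 31.1 and 27.9 CPM (-0.13, adjusted p = 0.475 by limma). In *P. patens* ATG3 (Pp3c8_11900) was at 32.7 and 30.04 against 33.3 and 33.01 CPM and ATG5 (Pp3c4_11110) at 20.9 and 21.5 against 22.2 and 20.2 CPM. In *S. moellendorffii* ATG3 (97230) was at 31.02 and 29.3 against 30.9 and 28.6 CPM and ATG5 (92777) at 14.7 and 12.7 against 15.99 and 14.2 CPM. These 6 features all had intervals within -1 and 1, and the conditions overlapped in 4 of them, the exceptions being *M. polymorpha* ATG5 and *P. patens* ATG3. In *E. hyemale* the 2 ATG3 genes summed to 12.2, 15.3 and 15.6 CPM in air and 14.3, 10.6 and 19.6 CPM in hypoxia, and the 2 ATG5 genes to 8.67, 7.68 and 6.64 against 7.34, 5.84 and 9.42 CPM. In *P. vittata* the main ATG3 transcript, TRINITY_DN28465_c0_g1_i2, was at 19.5 and 18.9 against 19.4 and 18.2 CPM.

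**Figure D2:**
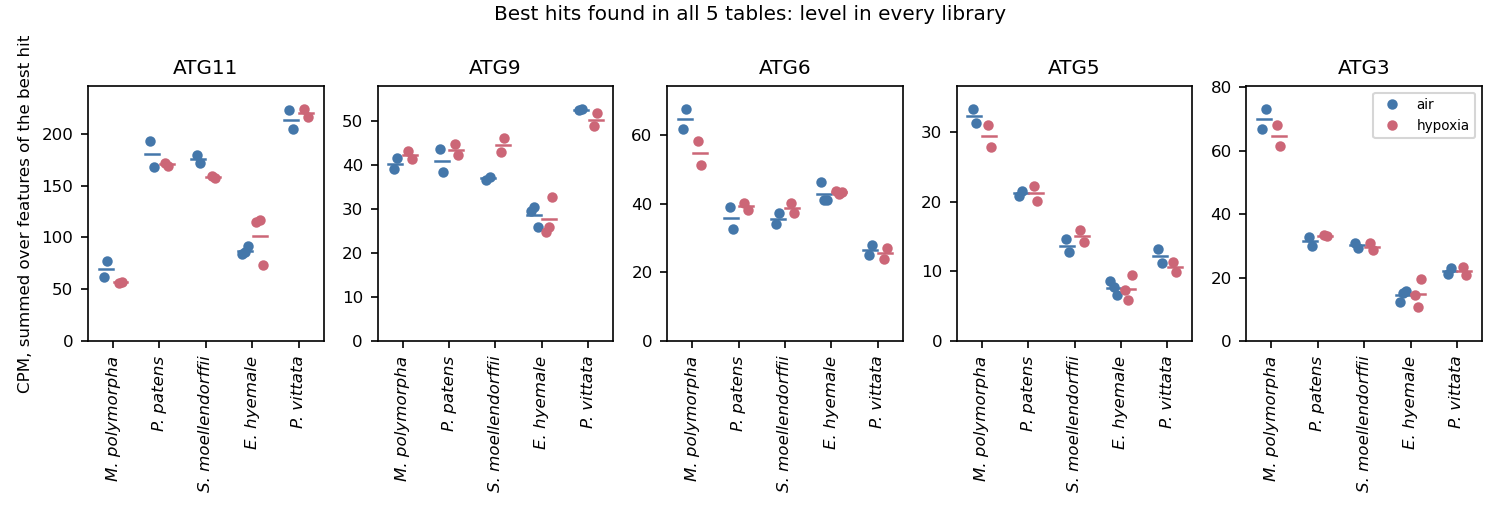
CPM in every library (points) and group mean (lines) of the 5 best hits found in all tables, summed over the features of a species and drawn from 0. Levels can be compared between air and hypoxia of 1 species only, since each table was scaled by itself. Air and hypoxia points lie close together in most panels, with the hypoxia points apart from air, for example, for ATG11 and ATG6 in *M. polymorpha* and for ATG9 in *S. moellendorffii*.

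Separation of the libraries was counted for all members. In *M. polymorpha* 4 of 10 members were lower without overlap and 0 higher, where 30.4% and 30.1% of all features were so. In *P. patens* 6 of 18 were higher and 0 lower, beside 20.5% and 20.9%. In *S. moellendorffii* 3 of 15 were higher and 2 lower, beside 26% and 23.5%. *E. hyemale* had 1 of 21 in each direction, beside 9.66% and 9.38%, and *P. vittata* 5 of 23 in each direction, beside 21.6% and 20.9%. In *P. patens* the air library 3 held the lowest value of 14 of the 18 members, against 29.7% of all features with a mean of at least 5 CPM, and air 2 held the highest value of 8. The part of the air library in the moss direction was not tested.

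The ATG8 proteins, which coat the autophagosome, were reached by the rule in *E. hyemale* only, as ATG8e. Ehym_DN107178_c2_g1 was at 70.9, 65.5 and 56.4 CPM in air and 60.4, 56.7 and 81.5 CPM in hypoxia, and Ehym_DN107178_c4_g3 at 13.6, 14.1 and 12.7 against 12.4, 13.4 and 17.1 CPM. For both genes hypoxia 4 was the highest library and the conditions overlapped. The remaining genes of the pathway, from a list of best hits written by role, gave 221 further features under 27 best hits, among them the other ATG8 forms, ATG1, ATG4, ATG7, VPS34, NBR1 and the TOR complex. Of these, 3 passed, all in *M. polymorpha*, 1 higher and 2 lower of its 29 further features, beside the 8.42% and 8.34% of all its features given above.

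In *M. polymorpha* both ATG8 features fell. Mapoly0027s0034.1 (best hit ATG8d) was at 271 and 249.9 CPM in air and 184 and 156 CPM in hypoxia, a log2 fold change of -0.61 (interval -0.88 to -0.35, adjusted p = 0.0103 by limma). Mapoly0001s0494.1 (ATG8c) was at 380.0 and 356 CPM in air and 291 and 260.5 CPM in hypoxia (-0.42, interval -0.67 to -0.16, adjusted p = 0.0369 by limma). Their sum went from 651 and 606 CPM to 475 and 417 CPM. In a whole shoot, fewer cells of a type and less RNA per cell cannot be told apart. The ATG8d call was lost without air 1 (log2 fold change -0.56, adjusted p = 0.0715 by limma). The ATG8c call was lost without air 1 (0.169), air 2 (0.0883) or hypoxia 2 (0.185), while the log2 fold change stayed between -0.50 and -0.34. Neither feature, nor any other pathway gene, had an absolute log2 fold change above 1 with its call, which 1.66% of all features had as higher and 1.64% as lower (1.47% and 1.35% at an adjusted p of at most 0.01).

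Of the 8 *M. polymorpha* features with NBR1 as best hit, the autophagy receptor for ubiquitinated cargo, 1 rose. Mapoly0033s0158.1 went from 46.6 and 53.8 CPM to 65.1 and 69.3 CPM (0.42, interval 0.17 to 0.67, adjusted p = 0.0349 by limma). That call was lost without air 1 (adjusted p = 0.192 by limma), air 2 (0.0533) or hypoxia 2 (0.112), while the log2 fold change was 0.31, 0.52 and 0.37. The feature with the most reads, Mapoly0100s0042.1, was at 620.4 and 666 against 669.5 and 649 CPM. Mapoly0039s0049.1 and Mapoly0039s0050.1, which have consecutive identifiers and may share reads, were at 68.9 and 38.96 against 74.2 and 24.4 CPM and at 55.02 and 50.07 against 45.2 and 26.1 CPM, each lowest in hypoxia 2. All 8 features together summed to 1423 and 1462 CPM in air and 1535 and 1384 CPM in hypoxia, and overlapped.

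**Figure D3:**
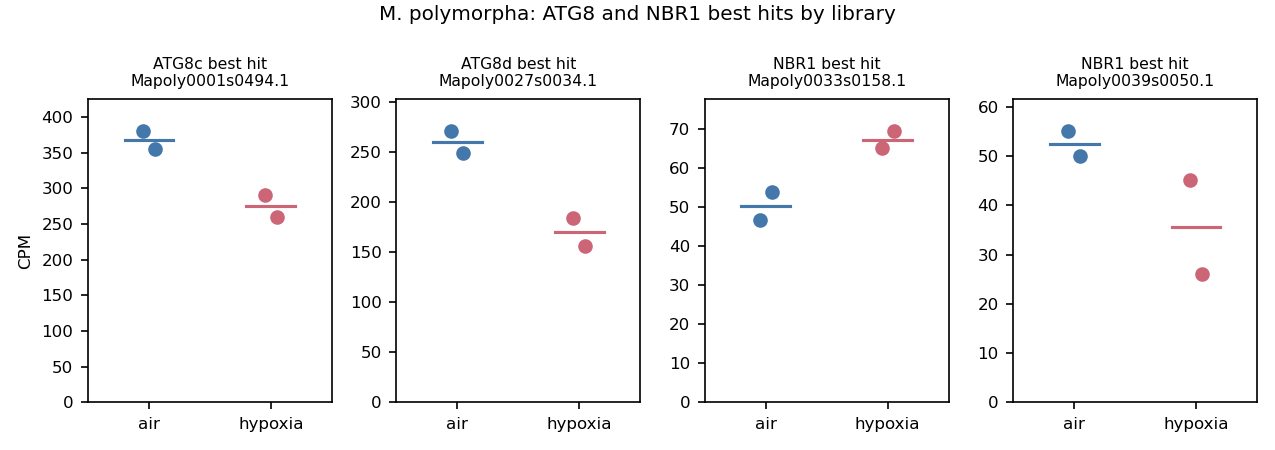
CPM in each *M. polymorpha* library (points) and group mean (lines), on axes from 0, for the ATG8c and ATG8d features and for 2 features with NBR1 as best hit. Both ATG8 features lie lower in hypoxia in both libraries, from means of 368 and 260.4 CPM to 276 and 170.2 CPM. Mapoly0033s0158.1 lies higher, at a mean of 67.2 against 50.2 CPM, and Mapoly0039s0050.1 did not pass.

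ATG8 features of the other species did not pass. In *P. patens* the 7 features summed to 746 and 924 CPM in air and 918 and 864 CPM in hypoxia, and Pp3c1_32170 (ATG8d) was at 192 and 239 against 229 and 221 CPM. In *S. moellendorffii* the 3 features summed to 199 and 200 against 208 and 214 CPM, with 109593 (ATG8f) at 119.9 and 114 against 115 and 125 CPM. In *E. hyemale* the 10 features, ATG8e included, summed to 255, 259.7 and 229.9 against 210.0, 218 and 295 CPM, and in *P. vittata* the 17 transcripts summed to 221 and 174 against 197 and 186 CPM. In all but *S. moellendorffii* the sums overlapped. Whether the difference in *M. polymorpha* differs from that in the other species was not tested.

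None of the further genes of initiation, ATG8 processing and conjugation passed. ATG16, the partner of ATG5 and ATG12, was higher without overlap in 3 species. In *S. moellendorffii* 268258 was at 64.4 and 64.3 CPM in air and 72.9 and 75.4 CPM in hypoxia (0.20, unadjusted p = 0.0251, adjusted p = 0.248, both by limma). In *E. hyemale* Ehym_DN102686_c0_g1 was at 8.515, 8.98 and 7.34 against 10.85, 12.3 and 12.05 CPM (0.46, unadjusted p = 0.0204, adjusted p = 0.272, both by limma), and in *P. vittata* the gene TRINITY_DN30428_c0_g1 was at 22.7 and 21.0 against 24.7 and 24.8 CPM (0.175, adjusted p = 0.536 by limma). Higher without overlap were 26% of all lycophyte features, 9.66% of horsetail features and 22.5% of fern genes. In *M. polymorpha* and *P. patens* the ATG16 sums overlapped. ATG7, which activates ATG8 and ATG12, was at 62.5 and 62.9 against 61.0 and 62.8 CPM in *M. polymorpha* (Mapoly0015s0071.1), at 30.7 and 26.2 against 27.5 and 27.7 CPM in *P. patens* (Pp3c24_8100) and at 29.5 and 26.3 against 25.3 and 26.5 CPM in *S. moellendorffii* (164297). The 6 ATG7 features had log2 fold changes between -0.39 and 0.05. ATG4, the protease that trims ATG8, was at 85.0 and 85.6 against 81.2 and 76.7 CPM in *M. polymorpha* (Mapoly0153s0038.1) and at 14.4 and 14.4 against 11.4 and 10.6 CPM in *P. vittata* (TRINITY_DN28096_c0_g1_i1, -0.36, adjusted p = 0.545 by limma). ATG1, the kinase itself, was at 27.2 and 28.9 against 26.8 and 27.7 CPM in *M. polymorpha* (Mapoly0022s0025.1) and at 134.3 and 134 against 114 and 110.0 CPM in *S. moellendorffii* (268528, -0.26, adjusted p = 0.174 by limma). The ATG4 and *S. moellendorffii* ATG1 features named here were lower without overlap. Other ATG1 features went the opposite way. The moss ATG1a feature Pp3c19_5230 was at 39.5 and 40.6 against 48.5 and 44.8 CPM (0.214). The fern ATG1c gene TRINITY_DN33717_c0_g1 was at 53.6 and 54.05 against 57.3 and 57.2 CPM (0.086). Their adjusted p was 0.4845 and 0.7558 by limma. Summed over all ATG1 best hits, hypoxia was higher without overlap in the fern and lower without overlap in the lycophyte. Elsewhere the ATG1 sums overlapped. In *S. moellendorffii* 11 of the 27 further features were lower without overlap and 5 higher, beside 23.5% and 26% of all features.

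TOR and its partners RAPTOR and LST8, which restrain autophagy in fed cells, gave 51 features, none of which passed in limma. At an unadjusted p under 0.05, 2 of 5 were higher in the liverwort (15.4% of all features were so), and 1 of 6 in the lycophyte, 1 of 15 in the horsetail and 3 of 17 in the fern were lower (5.42%, 5.99% and 4.23%). In *M. polymorpha* RAPTOR (Mapoly0002s0262.1) was at 112 and 127 CPM in air and 141 and 151 CPM in hypoxia (0.29, adjusted p = 0.105 by limma), and 1 of 3 TOR features (Mapoly0101s0045.1) at 69.3 and 85.6 against 99.4 and 95.4 CPM (0.34, adjusted p = 0.0961 by limma). Another TOR feature, Mapoly0047s0119.1, was lower without overlap, at 82.6 and 91.4 against 79.3 and 82.4 CPM (-0.10). The third, Mapoly0069s0061.1, overlapped (-0.03). The lipid kinase subunits VPS15 (Mapoly0002s0158.1, 0.30) and VPS38 (Mapoly0173s0024.1, -0.41, adjusted p = 0.0793 by limma) separated in opposite directions there. In *S. moellendorffii* 1 RAPTOR feature, 171199, was at 130.0 and 130.1 against 108 and 108 CPM (-0.26, adjusted p = 0.165 by limma), and the other, 183380, at 403 and 387 against 423 and 413 CPM. In *E. hyemale* Ehym_DN104803_c0_g2 (RAPTOR) was at 4.60, 4.26 and 3.16 CPM in air and 1.60, 1.52 and 0 CPM in hypoxia (adjusted p = 0.0965 by limma), while the component as a whole, Ehym_DN104803_c0, was at 39.6, 41.5 and 44.4 against 46.0, 39.5 and 26.1 CPM.

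In *P. vittata* the TOR complex was described by gene, with transcripts summed. All 5 genes had a lower mean in hypoxia and 3 did not overlap, beside 24.4% of all genes. LST8 (TRINITY_DN26185_c0_g1) was at 47.9 and 41.0 CPM in air and 33.7 and 33.8 CPM in hypoxia (-0.38, interval -0.67 to -0.10, adjusted p = 0.222 by limma). RAPTOR (TRINITY_DN36276_c0_g2) was at 134 and 196 against 122 and 122 CPM (-0.40, adjusted p = 0.379 by limma), highest in air 3.

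In *E. hyemale* much of the spread lay in 1 library. Hypoxia 4 held the lowest of the 6 values in 7 of 21 members and the highest in 5, and the lowest in 9 of 15 features of the TOR complex. Ehym_DN108981_c0_g2 was at 42.1, 42.0 and 47.9 CPM in air and 59.2, 58.7 and 40.1 CPM in hypoxia, and Ehym_DN108981_c0_g3 at 38.8, 41.3 and 39.9 against 51.6, 55.0 and 31.2 CPM. With all libraries their log2 fold changes were 0.24 and 0.16 (adjusted p = 0.634 and 0.818 by limma). Without hypoxia 4 they were 0.42 and 0.41 (adjusted p = 0.0697 and 0.0657 by limma). In that setting 5 of the 21 members had an unadjusted p under 0.05 in limma, 3 higher and 2 lower, beside 8.25% and 7.95% of all features in that setting, and none passed. The smallest adjusted p there, 0.0641, was that of an ATG6 gene, Ehym_DN103408_c0_g1, at 1.52, 1.95 and 2.84 CPM in air and 6.91, 4.48 and 0.610 CPM in hypoxia. ATG18g (Ehym_DN107634_c0_g1) was at 80.6, 76.1 and 90.1 against 85.5, 92.8 and 52.9 CPM, low in the same library, and ATG3 (Ehym_DN88411_c0_g2) at 9.55, 9.29 and 9.22 against 8.95, 6.39 and 13.7 CPM, high in it.

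**Figure D4:**
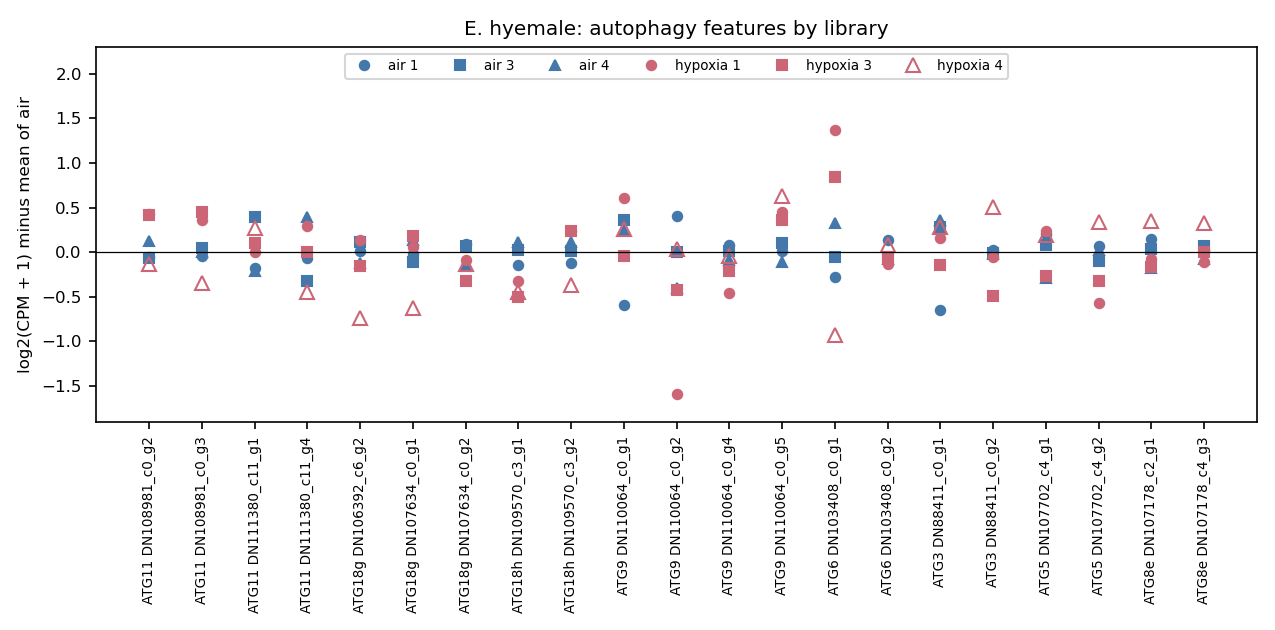
The 21 autophagy members of *E. hyemale*, each library as log2(CPM + 1) minus the mean of the 3 air libraries. Blue symbols are air and red symbols hypoxia, and the open triangle is hypoxia 4, which lies below the other hypoxia libraries for both ATG11 genes of component DN108981 and above them for both ATG8e genes.

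Several *E. hyemale* members are parts of 1 assembly component. The 4 ATG9 genes of component DN110064_c0 did not move together. Ehym_DN110064_c0_g5 was at 5.31, 5.72 and 4.80 CPM in air and 7.53, 7.04 and 8.69 CPM in hypoxia (0.48, interval 0.06 to 0.90, adjusted p = 0.317 by limma), with no overlap. Ehym_DN110064_c0_g2 was at 11.5, 8.49 and 6.21 against 2.16, 6.05 and 8.72 CPM (-0.66, adjusted p = 0.525 by limma), and Ehym_DN110064_c0_g4 at 9.32, 8.86 and 8.20 against 6.12, 7.43 and 8.47 CPM. All genes of the component together were at 31.1, 31.4 and 27.2 against 26.0, 27.6 and 34.6 CPM (-0.03). With all genes of a component summed, members or not, the 21 members fell into 11 units. Such a sum can be mostly other genes. Ehym_DN106392_c6 was at 43.7, 49.9 and 56.9 CPM in air, and its ATG18g member Ehym_DN106392_c6_g2 at 9.11, 9.80 and 8.19 CPM. All 11 units had intervals within -1 and 1, and 0 passed, where 1.63% and 0.616% of all components passed as higher and lower. Of these units, 1 was lower without overlap and 0 higher, beside 10.1% and 10.7% of all components. This summing was added after the values were seen.

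In *P. vittata* the widest intervals belonged to transcripts of the same gene that moved against each other. The ATG18c transcripts TRINITY_DN33460_c0_g1_i1 and TRINITY_DN33460_c0_g1_i2 were at 0.0005 and 23.5 CPM in air 1 and at 19.6 and 4.56 CPM in air 3. In hypoxia 1 they were at 12.9 and 7.30 CPM, and in hypoxia 3 at 6.998 and 15.05 CPM. Their sum was 23.5 and 24.2 CPM in air and 20.2 and 22.1 CPM in hypoxia (-0.17, adjusted p = 0.557 by limma). ATG5 transcripts of TRINITY_DN35846_c1_g2 separated in opposite directions, i1 at 4.69 and 6.05 against 7.20 and 6.37 CPM (0.29) and i4 at 8.58 and 5.22 against 4.22 and 3.52 CPM (-0.67), and all transcripts of that gene summed to 14.8 and 12.3 against 12.9 and 10.9 CPM.

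Among the members, the only *P. vittata* transcript with an unadjusted p under 0.05 in limma was one of ATG11, TRINITY_DN35754_c0_g1_i3, at 3.35 and 3.05 CPM in air and 9.38 and 4.76 CPM in hypoxia (0.88, adjusted p = 0.483 by limma). It made up a small part of its gene, which was at 204 and 187 CPM in air and 204 and 196 CPM in hypoxia (0.04, interval -0.26 to 0.33). Outside the members, the ATG16 transcript TRINITY_DN30428_c0_g1_i1 was at 9.92 and 0 against 7.01 and 10.4 CPM, while its gene, described above, stayed between 21.0 and 24.8 CPM. With transcripts summed by gene, 0 of 15 genes passed, where 0.332% and 0.0663% of all genes passed as higher and lower, and all 15 had intervals within -1 and 1. The lowest log2 fold changes of these sums were -0.30 for the ATG2 gene TRINITY_DN36099_c1_g2, at 20.1 and 22.6 against 15.8 and 18.5 CPM (adjusted p = 0.371 by limma), and -0.23 for the ATG18h gene TRINITY_DN36090_c0_g1.

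**Figure D5:**
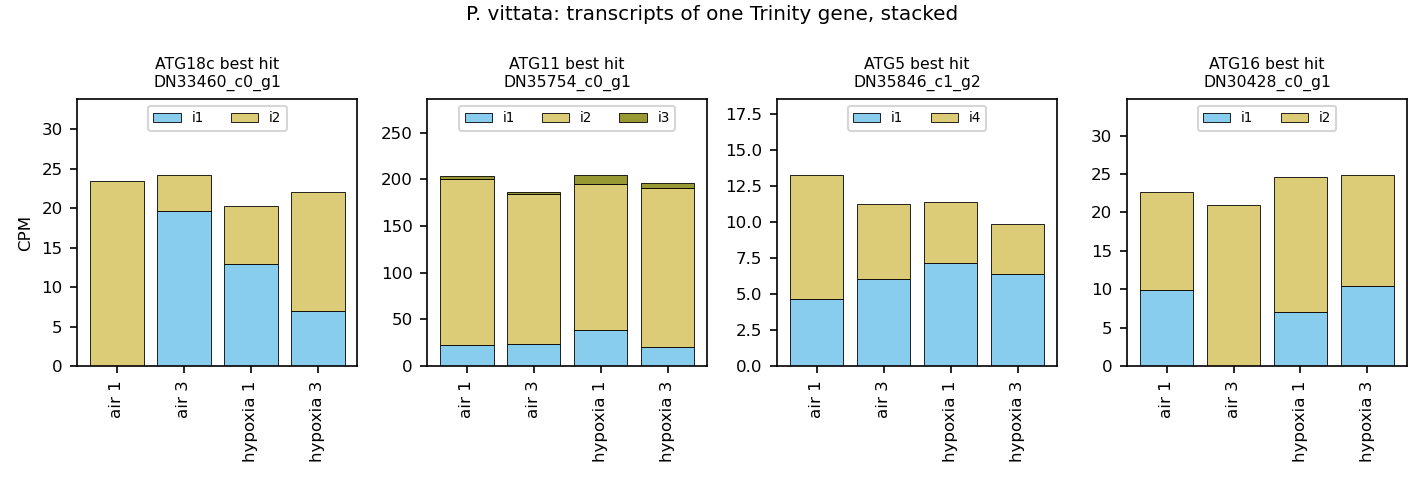
CPM of *P. vittata* transcripts stacked by library for the genes with best hits ATG18c, ATG11, ATG5 (members) and ATG16, on axes from 0. For ATG18c and ATG16 the shares of the transcripts differ more between libraries than the heights of the bars do, and i1 of ATG18c went from 0.0005 CPM in air 1 to 19.6 CPM in air 3.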

How the data were processed

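RNA was sequenced from 22 libraries of 5 species. Per the labels, the libraries were stranded and enriched for poly(A) RNA. Per the study's methods, the authors quantified reads with Kallisto against reference transcriptomes (*M. polymorpha*, *P. patens*, *S. moellendorffii*) or Trinity assemblies (*E. hyemale*, *P. vittata*), dropped loci with no sample above 20 reads, and scaled with edgeR's TMM; versions are not given in the sources used here. The deposited values are log2 CPM without pseudocount, so a 0 has no number; columns with the authors' own fold changes and false discovery rates were not used. One air column of *S. moellendorffii* carries a number found on no air label and entered as an unnumbered air library. Kallisto may split reads between near-identical copies.

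Values were turned back to CPM, with TMM scaling kept, and log2(CPM + 1) was tested with limma 3.58.1 (R 4.3.3, eBayes with trend), hypoxia minus air within a species, with Benjamini-Hochberg adjustment over all features and a threshold of 0.05. A fold change on this scale understates that of low features. Data were handled in pandas 2.3.3. The code was also run on data simulated from the fit's own noise model, with larger changes than any member had. That run gives no measure of power for the small changes described here. Whole reads could not be recovered, since only 40.5 to 79.7% of low values fell within 0.1 read of a whole number, so no count test was run. Replicates are pools of 3 plants, and with 2 or 3 of them the p-values measure only the spread between these pools. Named features were, in each species, those that passed, then up to 3 per direction with a mean of at least 5 CPM and no overlap, and the feature with the highest mean CPM of each main gene; others were named to account for the remaining members and were chosen with their values in view. The members, the pathway lists and the naming rule were chosen with earlier results of these data known. Alternatives covered the pseudocount, low-value filter, scaling, variance prior, call rule, replicate block, each library left out and summing by gene.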

Additional observations from a re-analysis of the deposited data

Results flagged for a closer look

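Best hits whose libraries separated in opposite directions in 2 species were picked out among all 14 best hits of the members, with CPM summed over features. They were ATG6 and ATG9. Of all features, 26% were higher without overlap in *S. moellendorffii*, and 30.4% and 20.9% were lower without overlap in *M. polymorpha* and *P. vittata*. ATG6 was higher in both hypoxia libraries of *S. moellendorffii* and lower in both of *M. polymorpha*. In *S. moellendorffii* the separation was narrow, with air 3 at 37.25 CPM and hypoxia 3 at 37.3 CPM (adjusted p = 0.559 by limma). The log2 fold changes of the summed CPM, 0.12 and -0.24, differed by 0.352. ATG9 was higher in *S. moellendorffii* and lower in *P. vittata*, with values of 0.26 and -0.06 that differed by 0.324. The *P. vittata* value had an interval of -0.395 to 0.272 (adjusted p = 0.9038 by limma). Neither difference between species was tested, and the tables were scaled separately.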

How the results depend on the processing

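No autophagy member passed in any alternative fit, and no named value changed sign with a call. Of the further pathway genes in *M. polymorpha*, 3 passed; 1 did with no trend in the prior variance and 0 with an absolute log2 fold change above 1 added, at an adjusted p under 0.05 or at most 0.01. Leaving out 1 library gave between 0 (without air 1) and 6 (without hypoxia 1), where 6.22% and 20.1% of all features passed. NBR1 feature Mapoly0033s0158.1 missed the threshold with no trend (adjusted p = 0.0744 by limma) and with equal library totals (0.0665), and ATG8c with no trend (0.0665).

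Across species and alternative fits, the median log2 fold change of members shifted in 13 cases by at least its spread between replicate libraries. It stayed between -0.166 and 0.170. It was -0.067 with equal library totals in *S. moellendorffii*, where the median of all features moved to -0.053. In *P. vittata* it was -0.025 with a pseudocount of 5 CPM, -0.079 with equal totals, -0.034 with median-of-ratios scaling and -0.062 with transcripts summed by gene. In *E. hyemale* it was -0.073 without air 4 and hypoxia 4, a setting added after the data were seen. With 1 library left out it ranged from -0.012 to 0.170 in *P. patens*, -0.026 to 0.040 in *S. moellendorffii*, -0.051 to 0.015 in *P. vittata*, -0.023 to 0.039 in *E. hyemale* and -0.166 to -0.025 in *M. polymorpha*. The causes were not tested.

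Replicate numbers were used as a block in *M. polymorpha*, *E. hyemale* and *P. vittata*, although same-numbered libraries did not deviate together (correlations of 0.031 in *M. polymorpha*, 0.061 in *P. vittata* and -0.276 to -0.075 in *E. hyemale*). With the replicate block 0 members passed in each, and 4 further pathway genes passed in *M. polymorpha*, 1 higher and 3 lower, beside 9.45% and 9.98% of all features, and 0 in the others. In *P. patens* no paired analysis was possible because air and hypoxia share 1 replicate number, and in *S. moellendorffii* because 1 air column carries a number found on no air label.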
